A study of Mus musculus with 4 samples.

Results

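Genes through which the liver answers fasting under the nuclear receptor PPARalpha were examined by symbol: the coactivator Ppargc1a, the fasting-responsive transcription factor Creb3l3, the hormone Fgf21, and the target genes Pdk4, Acot1, Vnn1, Angptl4, Fabp1, Acsl1 and Cd36. Of these 10 genes 9 had a named probe among the 16593 genes on the array, and Acsl1 was not analysed here. Whole-liver RNA came from C57BL/6 mice 4 weeks old and labelled male, with 2 samples in each group. The TAK1 KO samples carried the genotype Alb-Cre/ TAK1 flox, in which the albumin promoter drives Cre, and so deletion of TAK1, in hepatocytes. The WT samples carried TAK1 flox without Cre. Cre and the deletion therefore differ together between the groups, and the floxed allele is shared by all 4 samples. The mice were untreated and fed chow freely, so the fasting genes were read in animals that were not deprived of food on purpose. The comparison asks how these genes differ when hepatocytes lack TAK1, a kinase of cytokine and Toll-like receptor signalling.

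PPARalpha is a receptor for fatty acids and their derivatives that pairs with RXR and binds direct repeats of AGGTCA separated by a single base. During fasting it raises genes for the uptake, activation, oxidation and export of fatty acids in hepatocytes. Glucagon acts through CREB to raise Ppargc1a, whose product PGC-1alpha binds PPARalpha and other nuclear receptors and increases their activity. CREB3L3 (CREBH) is a membrane-bound factor of the endoplasmic reticulum that is cleaved during fasting and acts with PPARalpha on Fgf21.

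Because these genes are defined by shared regulators, the 250 bases upstream of the annotated start are shown for 4 of them: Pdk4, which passed the test, the regulators Ppargc1a and Fgf21, and Fabp1, whose promoter is the textbook case of a PPARalpha element. The sequences are RefSeq's on GRCm38.p6 and run 5′ to 3′ on the gene's strand. Capitals mark the receptor half-site AGGTCA, the direct repeat of AGGNCA with a single base (N) between its copies, and TGACG, the half-site of the cAMP response element, on either strand.
Pdk4, chr6:5496279-5496528, minus strand: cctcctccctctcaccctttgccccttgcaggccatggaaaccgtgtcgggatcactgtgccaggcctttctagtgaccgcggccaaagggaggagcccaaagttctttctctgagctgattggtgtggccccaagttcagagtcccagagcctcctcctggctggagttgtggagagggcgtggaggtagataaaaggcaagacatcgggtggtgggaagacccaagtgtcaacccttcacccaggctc
Ppargc1a, chr5:51567726-51567975, minus strand: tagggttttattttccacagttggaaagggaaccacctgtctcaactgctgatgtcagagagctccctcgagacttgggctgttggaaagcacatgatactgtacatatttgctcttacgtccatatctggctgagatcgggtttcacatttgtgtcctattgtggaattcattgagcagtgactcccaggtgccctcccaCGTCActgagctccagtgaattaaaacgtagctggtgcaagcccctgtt
Fgf21, chr7:45615491-45615740, minus strand: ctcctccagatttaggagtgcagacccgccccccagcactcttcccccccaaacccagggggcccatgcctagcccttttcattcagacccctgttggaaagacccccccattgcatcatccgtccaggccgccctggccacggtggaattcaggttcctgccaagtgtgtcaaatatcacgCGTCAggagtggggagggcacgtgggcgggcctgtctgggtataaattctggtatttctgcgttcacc
Fabp1, chr6:71199629-71199878, plus strand: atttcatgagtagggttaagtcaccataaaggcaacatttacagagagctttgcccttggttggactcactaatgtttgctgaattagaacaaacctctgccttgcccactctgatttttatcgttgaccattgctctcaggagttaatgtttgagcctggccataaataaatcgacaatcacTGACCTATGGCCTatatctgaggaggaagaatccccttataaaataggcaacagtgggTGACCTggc

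Windows of this kind were held for 8 of the 10 genes (10 windows), and not for Vnn1 and Angptl4. The Fabp1 window held the direct repeat as TGACCTATGGCCT from position -67 to -55, counted back from the start, and the repeat in any of its forms occurred in 0.338% of 32851 mouse promoter windows. AGGTCA occurred in a window of Fabp1, Cd36 and Creb3l3 and in 14% of all windows, and each capital run of Fabp1 contains it. TGACG lay at -49 to -45 in Ppargc1a and at -68 to -64 in Fgf21, printed on the other strand as CGTCA, and also in a Creb3l3 window; it occurred in 17.8% of all windows. The full element TGACGTCA (1.55% of windows) and the FOXO motif GTAAACA (3.17%) were found in 0 of the 10 member windows. The windows of Pdk4, Acot1 and Acsl1 held none of these motifs.

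The arrays were close to each other in overall signal, with medians of 81.5 to 81.9 intensity units. Map3k7, which encodes TAK1, read 125.3 and 117.9 units in TAK1 KO livers, against 155 and 138.4 units in WT livers, and did not pass (limma, adjusted p = 0.116). The position of its probe relative to the deleted part is unknown, and its signal is therefore no check of genotype. All 4 samples are labelled male, yet Xist, the RNA of the inactive X chromosome, read 575 to 853.4 units, and the Y-linked genes Eif2s3y and Kdm5d lay between 53.3 and 69.3 units on all 4 arrays. A further Y-linked gene, Uty, read 112.4 to 142.2 units, above 100 on every array. Of the hepatocyte markers Ttr, Apoa1 and Cps1 were far above background on every array, while the probes of Alb and Fgb read at most 214.4 and 62.4 units. The labels do not say that samples came from separate animals, so p-values measure only the spread between these samples, which may be technical.

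Of the 9 measured genes only Pdk4 passed the test between the groups, and it was higher in TAK1 KO livers. Over all genes 18.2% passed, 10.5% higher and 7.71% lower. Of the 7791 genes that exceeded 100 units on 2 or more arrays 36.7% passed, 20.8% higher and 15.8% lower. Of the members 5 lay above that level (Ppargc1a, Creb3l3, Pdk4, Acot1 and Angptl4), and 1 of these 5 passed. Fgf21 lay above it on 1 array, and Vnn1, Fabp1 and Cd36 on none. The level of 100 units, taken from earlier work on these data, stands in for a detection call, which the deposited table does not carry. The median log2 change of the 9 measured genes was -0.071, against -0.0036 for all genes. For the 5 members above 100 units it was -0.15, against 0.011 for all genes above that level. Each gene was read by its brightest probe after background correction, and the log2 changes understate those of dim genes.

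**Figure D1:**
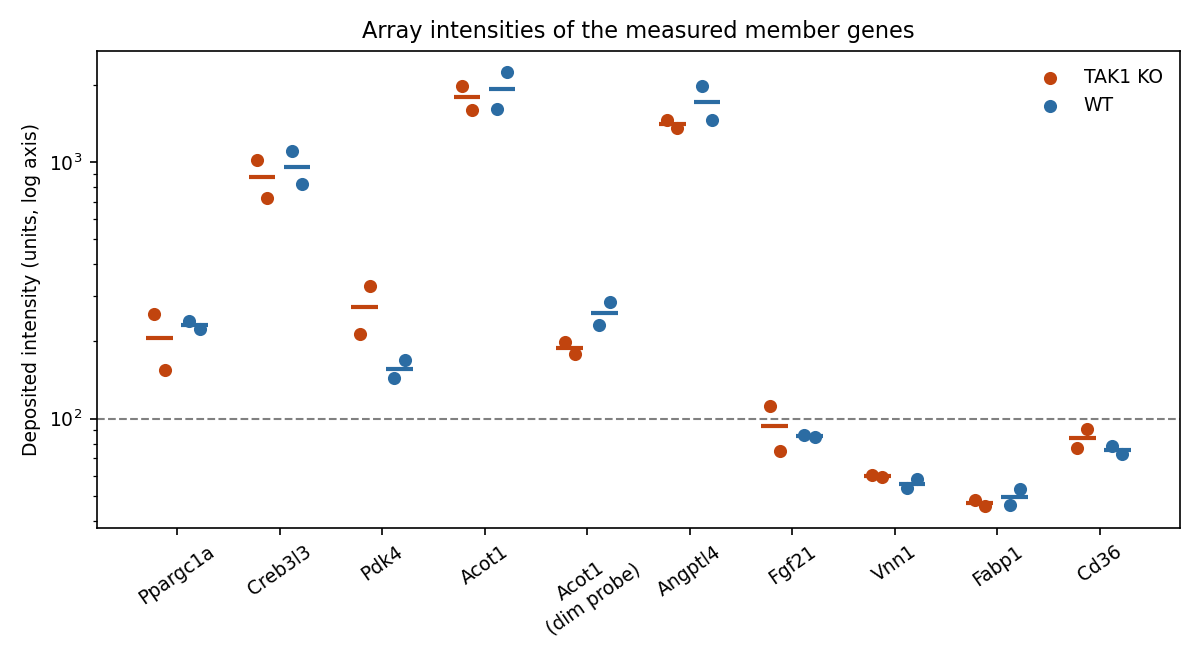
Deposited intensity (units, log axis) of each measured gene on the 2 TAK1 KO arrays and the 2 WT arrays; each point is an array, each bar the group mean, and the dashed line 100 units. Heights are not comparable between genes. Pdk4 was higher on both TAK1 KO arrays than on both WT arrays, and Fgf21, Vnn1, Fabp1 and Cd36 lay near or under the line.

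Pdk4, the kinase that switches off pyruvate dehydrogenase and so spares glucose when fatty acids are burned, read 214 and 329.3 units in TAK1 KO livers, against 143.9 and 169.2 units in WT livers. Both TAK1 KO arrays lay above both WT arrays, and the TAK1 KO arrays differed from each other 1.54-fold. The change was 1.68-fold (log2 0.75 ± 0.18 SE, 95% interval 0.34 to 1.16, limma adjusted p = 0.018). The call was lost without WT replicate 1 (adjusted p = 0.171) and without WT replicate 2 (adjusted p = 0.0768), and the log2 change was 0.44 without TAK1 KO replicate 2. The groups did not overlap for 3 of the 9 measured genes (Pdk4 and Vnn1 higher, Angptl4 lower), and for 53.7% of all genes, 27.4% higher and 26.3% lower.

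Ppargc1a, the coactivator, read 257 and 154.9 units in TAK1 KO livers, against 241 and 223.6 units in WT livers. The WT readings fell between the TAK1 KO readings, so the groups overlapped. The log2 change was -0.21 ± 0.19 (SE), with a 95% interval of -0.65 to 0.23 (adjusted p = 0.583). It rested on which TAK1 KO array was kept: without replicate 1 it was -0.57, and without replicate 2 it was 0.14. Its paralogue Ppargc1b, chosen for mention after its values were seen, read 159 and 124.9 units in TAK1 KO livers, against 191.6 and 231.5 units in WT livers, and fell 1.48-fold (adjusted p = 0.0183, and 0.173 without WT replicate 2).

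Creb3l3 read 1018.6 and 725.3 units in TAK1 KO livers, against 1101.4 and 821.4 units in WT livers. The groups overlapped, and each group held a high and a low array. The log2 change was -0.15 ± 0.18 (SE, 95% interval -0.55 to 0.26, adjusted p = 0.709). Without TAK1 KO replicate 1 it was -0.39, and without TAK1 KO replicate 2 or WT replicate 1 it was 0.10 and 0.07.

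Fgf21, the hormone that the fasting liver secretes, read 111.9 and 74.6 units in TAK1 KO livers, against 86.5 and 85 units in WT livers. The reading above 100 units came from TAK1 KO replicate 1 alone, and no fold is given so close to background. Fgf21 did not pass (adjusted p = 0.818). Its change was upward without TAK1 KO replicate 2 and downward without TAK1 KO replicate 1.

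Angptl4, a secreted inhibitor of lipoprotein lipase, read 1460.3 and 1359.3 units in TAK1 KO livers, against 1980 and 1462.9 units in WT livers. The groups did not overlap, but the higher TAK1 KO reading and the lower WT reading were almost equal. The log2 change was -0.27 ± 0.14 (SE, 95% interval -0.59 to 0.04, adjusted p = 0.255). It was -0.49 without WT replicate 2 and -0.05 without WT replicate 1.

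Acot1, a cytosolic thioesterase that frees fatty acids from coenzyme A, had 2 probes with different results. The brighter read 1984.4 and 1591.4 units in TAK1 KO livers, against 1610.2 and 2236.6 units in WT livers, with overlapping groups and a log2 change of -0.09 ± 0.16 (SE, 95% interval -0.46 to 0.27, adjusted p = 0.805). Its sign turned without TAK1 KO replicate 2 (0.06) and without WT replicate 2 (0.14). The dimmer probe read 198.3 and 178.4 units in TAK1 KO livers, against 231.6 and 285.3 units in WT livers. These groups did not overlap, and in a fit of all 25697 probes this probe was 1.36-fold lower (log2 -0.44 ± 0.12 SE, adjusted p = 0.0337). Acot1 belongs to a cluster of near-identical thioesterase genes, so its probes are open to cross-hybridisation. Its neighbours Acot3 and Acot4, also named after their values were seen, did not pass (adjusted p = 0.491 and 0.336), and Acot3 read 627.5 and 245.5 units in TAK1 KO livers, against 440.7 and 679 units in WT livers. The log2 change of Acot3 was -1.14 without TAK1 KO replicate 1 and 0.20 without TAK1 KO replicate 2.

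The remaining 3 measured genes stayed below 100 units on every array. Cd36, the fatty acid translocase, read 77.1 and 91.5 units in TAK1 KO livers, against 78.1 and 72.9 units in WT livers. Vnn1, the pantetheinase, read 60.4 and 59.4 units in TAK1 KO livers, against 53.5 and 58.1 units in WT livers. Fabp1, the fatty acid binding protein of the hepatocyte cytosol, read 48.1 and 45.7 units in TAK1 KO livers, against 46.3 and 53.1 units in WT livers. Fabp1 is known as an abundant liver transcript, and its probe read near the lowest value of each array (39 to 42.2 units), so these readings carry no level or change for the gene.

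**Figure D2:**
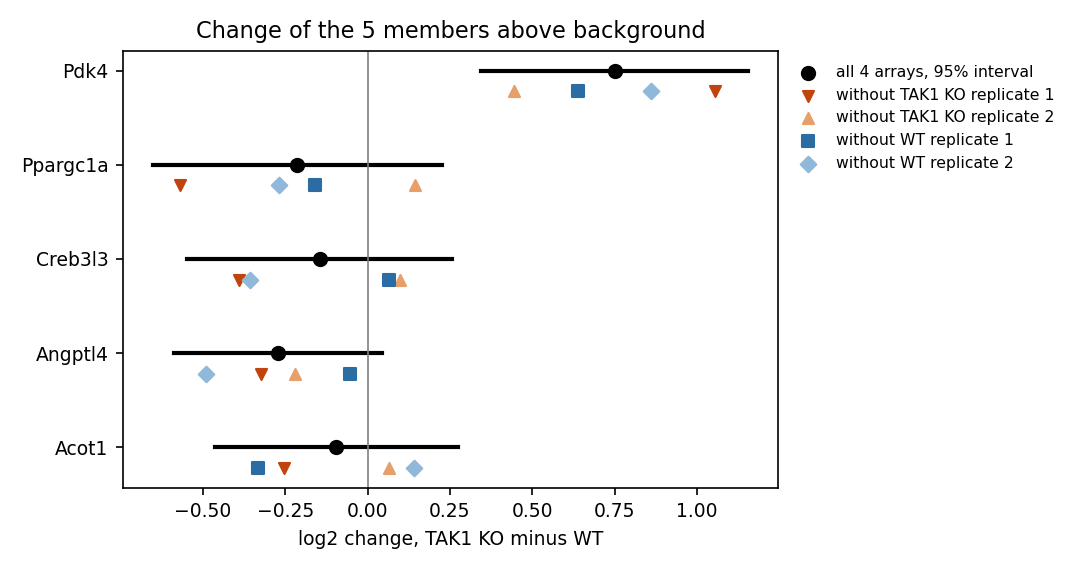
log2 change (TAK1 KO minus WT) of the 5 genes above 100 units, with its 95% interval from all 4 arrays in black and the value without each array as a coloured mark. The Pdk4 marks lie between 0.44 and 1.06, and those of Ppargc1a, Creb3l3 and Acot1 fall on both sides of 0.

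All 5 genes above 100 units varied more within the groups than most genes did. The SD within groups, pooled over both genotypes on the log2 scale, was 0.36 for Ppargc1a, 0.33 for Pdk4, 0.32 for Creb3l3, 0.28 for Acot1 and 0.22 for Angptl4, against a median of 0.10 over the 7791 genes above 100 units. Of those genes 97.9% had a smaller SD than Ppargc1a, and 90.6% a smaller SD than Angptl4. TAK1 KO replicate 1 read above TAK1 KO replicate 2 in 4 of the 5, and below it in Pdk4. WT replicate 1 read above WT replicate 2 in Ppargc1a, Creb3l3 and Angptl4, and below it in Pdk4 and Acot1. Between the 2 TAK1 KO arrays the higher reading exceeded the lower 1.66-fold for Ppargc1a and 1.40-fold for Creb3l3, and between the 2 WT arrays 1.08-fold and 1.34-fold.

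**Figure D3:**
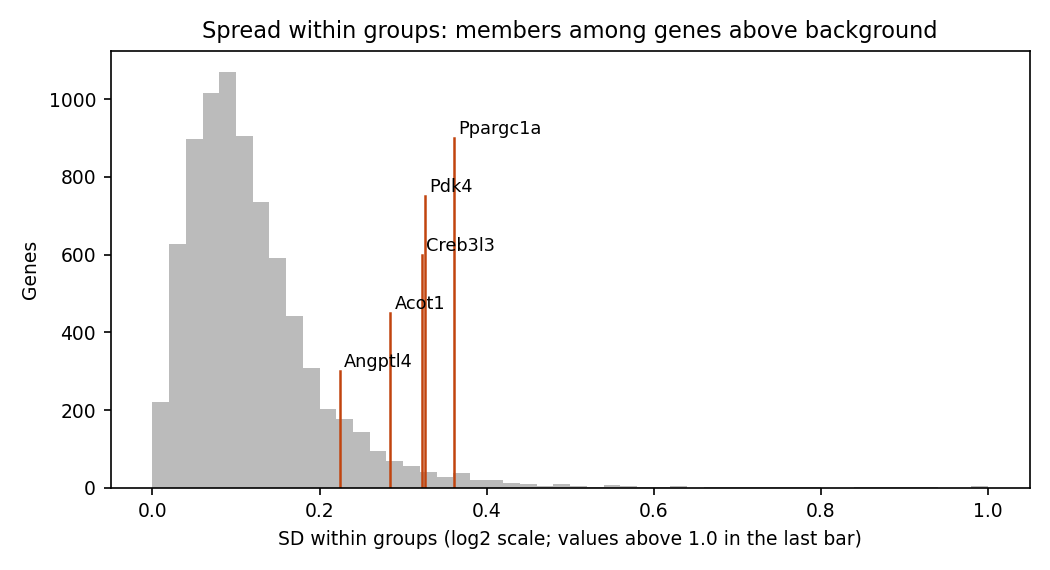
Histogram of the SD within groups (log2 scale, horizontal axis) over the 7791 genes above 100 units, with the number of genes on the vertical axis; red lines mark the 5 genes, and their heights have no meaning. All 5 lie in the right tail, from 0.22 for Angptl4 to 0.36 for Ppargc1a.

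Neither PPARalpha itself nor its partner RXRalpha passed the test. Ppara read 122 and 109.9 units in TAK1 KO livers, against 129.5 and 139.4 units in WT livers (log2 -0.21 ± 0.10 SE, adjusted p = 0.214), and Rxra read 209.3 and 195.9 units in TAK1 KO livers, against 216.7 and 222.5 units in WT livers (log2 -0.11 ± 0.09 SE, adjusted p = 0.520). A list of PPARalpha, its partners and its coregulators also held other nuclear receptors, among them Nr1h4, Hnf4a, Esrra, Pparg and Ppard. Of its 18 measured genes, Ppara and Rxra included, 5 fell, Nr1h4 among them, and 0 rose, with a median log2 change of -0.11. Over all genes 7.71% fell and 10.5% rose, the shares to set beside this and each later list. Lpin1, which acts as a coactivator of PPARalpha with PGC-1alpha besides being a phosphatidate phosphatase, read 458.8 and 318.9 units in TAK1 KO livers, against 887.4 and 946 units in WT livers, and fell 2.38-fold (log2 -1.25, adjusted p = 0.000574). With the mean of its 3 probes the log2 change was -0.48 (adjusted p = 0.0235); the other 2 probes averaged 69.1 and 54.8 units and did not pass (log2 -0.23 and 0.05). The deacetylase Sirt1, which acts on PGC-1alpha, fell 1.48-fold (adjusted p = 0.0117, and 0.117 without WT replicate 1), and the coactivator Ncoa3 fell by 0.59 on the log2 scale (adjusted p = 0.00609, and 0.0700 without WT replicate 2). Nr1h4, the bile acid receptor FXR, fell 1.52-fold (adjusted p = 0.0232), a call lost when WT replicate 1 (0.110), WT replicate 2 (0.179) or TAK1 KO replicate 2 was left out (for the last, log2 -0.35, against -0.61 with all arrays; adjusted p = 0.0519) and with a background offset of 16 (0.0587). Without WT replicate 1 this list had 3 falls, without WT replicate 2 it had 2, and 1 gene rose without TAK1 KO replicate 2.

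Other genes that PPARalpha is known to raise were more often lower than higher: of 36 measured, 14 fell and 3 rose, with a median log2 change of -0.21. Over all genes 7.71% fell and 10.5% rose, and of genes above 100 units on at least 2 arrays 15.8% and 20.8%. The 3 include Cidec, a lipid droplet protein named here after its values were seen, which read 115 and 79.6 units in TAK1 KO livers, against 62 and 60.9 units in WT livers, and so exceeded 100 units on 1 array only; among genes above that level on at least 2 arrays 14 of 28 fell and 2 rose. Cyp4a31, an omega-hydroxylase of the near-identical Cyp4a family, read 387.5 and 404.5 units in TAK1 KO livers, against 1153.9 and 1130.2 units in WT livers, and fell 2.86-fold (adjusted p = 1.41e-05). The acyl-CoA synthetase and fatty acid transporter Slc27a2 fell 2.12-fold (adjusted p = 0.00287). Lpl, lipoprotein lipase, rose 1.69-fold (adjusted p = 0.00256), and was chosen for mention after its values were seen because Angptl4 inhibits the enzyme it encodes. Falls and rises were fewer without either WT array, and the falls numbered 7 with a smaller background offset. Fewer genes also passed over the whole table in each of these fits. Macrophage and stellate cell markers rose in the same livers (10 of 12 and 8 of 10, and 0 fell in either). The summed intensity of the macrophage markers was 17255 and 17417 units in TAK1 KO livers, against 7914 and 7011 units in WT livers, and that of the stellate markers 24659 and 20572 units in TAK1 KO livers, against 9958 and 10719 units in WT livers. Hepatocyte markers summed to 206874 and 203303 units in TAK1 KO livers, against 185718 and 188007 units in WT livers, with 3 of 13 lower and 1 higher. Their median log2 change was -0.043. The brightest, Apoa2, Apoa1 and Ttr, read higher on both TAK1 KO arrays than on both WT arrays and weigh most in the sum. It therefore does not speak for the other hepatocyte markers. Of endothelial markers 1 of 10 fell and 0 rose, and of adipocyte markers 0 of 6 passed, 5 of them at or below 100 units on all arrays. The part of these cell types in the results was not tested, and in whole liver fewer cells of a type and less RNA per cell cannot be told apart.

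A list of genes of the glucagon, CREB and FOXO1 fasting response split likewise, with 6 of 21 lower, 2 higher and a median log2 change of -0.32. It held regulators besides target genes, among them Creb1, Crtc2, Foxo1, Foxo3 and the glucagon receptor gene Gcgr, which did not pass. Depp1 changed most in this list, and read 122.5 and 231.9 units in TAK1 KO livers, against 3483.3 and 2189 units in WT livers. It was 15.97-fold lower (adjusted p = 3.14e-05). Igfbp1, which binds insulin-like growth factors and is a FOXO1 target, read 453.5 and 958.6 units in TAK1 KO livers, against 3137.8 and 2766.8 units in WT livers. It fell 4.44-fold (adjusted p = 0.000698, and 0.0786 under an intensity-dependent robust prior). The aminotransferase Got1 read 471 and 437.8 units in TAK1 KO livers, against 1056.1 and 1106.6 units in WT livers, and fell 2.37-fold (adjusted p = 4.49e-05). Pdk4, also a FOXO1 target, moved the other way. The falls numbered 11 without TAK1 KO replicate 1, and the rises 1 without WT replicate 1.

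Known targets of CREB3L3 were higher in 5 of 10 cases (10.5% of all genes) and lower in 0 (7.71%). Their median log2 change was 0.44, while Creb3l3 did not pass. Cidec is again among the 5. Of the 8 that exceeded 100 units on 2 or more arrays 4 rose, against 20.8% of all genes above that level. Apoa4, an apolipoprotein of triglyceride-rich particles, read 902.8 and 1094.3 units in TAK1 KO livers, against 290.3 and 335.1 units in WT livers, and rose 3.15-fold (log2 1.66 ± 0.12 SE, adjusted p = 3.91e-05). G0s2, an inhibitor of adipose triglyceride lipase, rose 2.35-fold (adjusted p = 0.00496, and 0.0821 without WT replicate 1; log2 1.24, and 0.82 without TAK1 KO replicate 1), and the lipase cofactor Apoc2 1.61-fold (adjusted p = 0.00154). The iron hormone gene Hamp rose 1.95-fold (adjusted p = 0.0406). Its call was lost without WT replicate 2, with a robust prior (adjusted p = 0.372) and with a background offset of 16 (0.0597). It was also lost when genes were read by the mean of their probes (0.0681), although Hamp has a single named probe. Its log2 change was 0.96 with all arrays, 1.51 without WT replicate 1 and 0.41 without WT replicate 2. The rises numbered 3 without either WT array, and 1 gene fell without TAK1 KO replicate 1. Several of these genes are also raised by other factors.

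Of 5 genes of the FGF21 receptor, Klb, which encodes the coreceptor beta-klotho, fell and the 4 FGF receptors did not pass. Over all genes 18.2% passed. Klb read 277 and 230.9 units in TAK1 KO livers, against 411.3 and 447.9 units in WT livers, and was 1.69-fold lower (log2 -0.75 ± 0.11 SE, adjusted p = 0.00159). Without TAK1 KO replicate 2, 2 of the receptors rose. Among 9 acyl-CoA synthetases, the enzyme class of Acsl1, 5 fell and 1 rose (median log2 change -0.52). The bile acid and fatty acid ligase Slc27a5 fell 2.88-fold (adjusted p = 1.89e-05) and the medium-chain enzyme Acsm3 2.56-fold (log2 -1.35, adjusted p = 0.000126, and -0.77 with the mean of its probes), while Acsl4, which prefers arachidonic acid, rose 1.67-fold (adjusted p = 0.00105). The falls of this class numbered 3 without WT replicate 2.

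**Figure D4:**
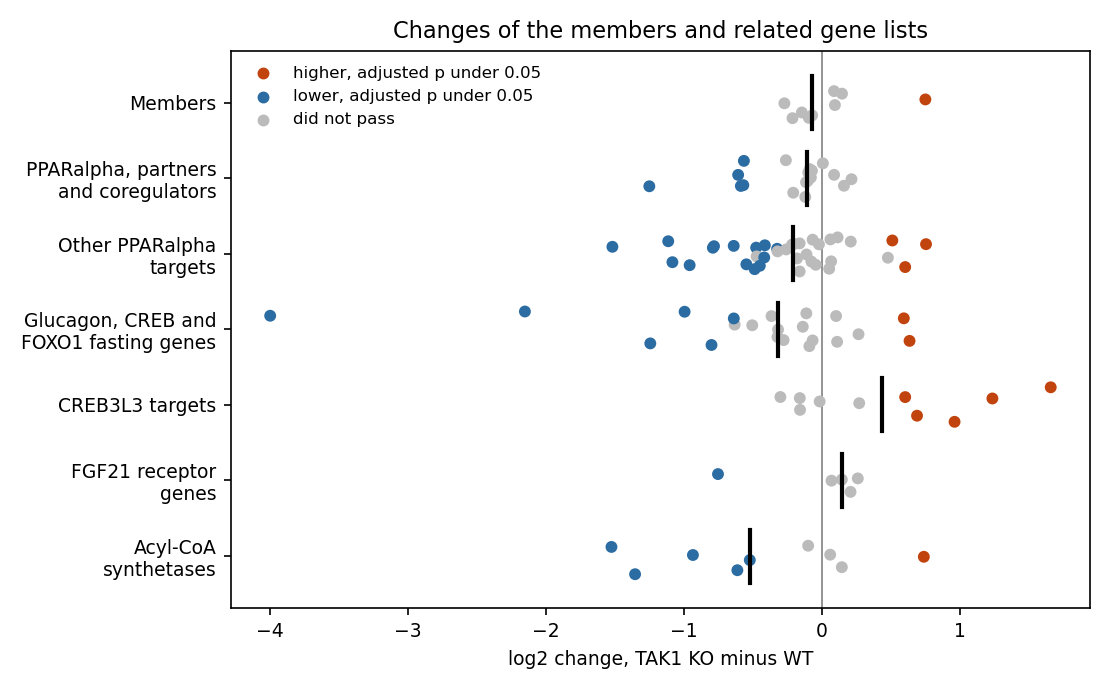
log2 change (TAK1 KO minus WT, horizontal axis) of each measured gene in the members and the 6 related lists; red points rose and blue points fell at an adjusted p under 0.05, grey points did not pass, and black bars are list medians. Blue points prevail among other PPARalpha targets (14 against 3 red), red ones among CREB3L3 targets (5 against 0 blue), and among the members 1 point, Pdk4, is coloured.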

How the data were processed

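The authors deposited linear probe intensity values, 1 column for each of the 4 Illumina arrays, already level between arrays; how they were normalized is not stated in the sources used here. The 4 columns of another table could not be tied to samples by name and were left out. RNA was extracted with Trizol, per the labels' protocols. Intensities were background-corrected with limma's normexp method (offset 50) and put on the log2 scale. The platform annotation gave a gene to 23978 of 25697 probes, several genes to 0, and left 1719 unnamed. Each gene was read by its probe with the highest mean. TAK1 KO was tested against WT by limma's moderated two-sided test (version 3.58.1, R 4.3.3), on 2 residual and 6.85 prior degrees of freedom. All p-values named as adjusted come from limma and were adjusted by Benjamini-Hochberg, with 0.05 as the threshold. The adjustment ran over 16593 genes, except in 2 cases. Single further probes of a gene were adjusted over all 25697 probes, and the filter at 100 units over 7791 genes. Where no array count is given, SEs rest on n = 2 arrays per group, and their number limits the precision. An exact permutation test of 2 against 2 cannot go below 0.333, so none was used. The procedure was tested on simulated data.

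The members and lists were chosen with earlier results of these data known. The rule for named genes took all members, Map3k7, Ppara, Rxra and up to 4 passed genes with the largest change in each list; the text does not give every gene it took. Other probes of the named genes that lay above 100 units on average differed in call for Acot1 and, among cell type markers, for Acta2.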

Additional observations from a re-analysis of the deposited data

How the results depend on the processing

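Leaving out each array in turn gave 1800 to 3304 passed genes over the whole table, against 3022 with all 4, and 0 to 3 passed members, against 1. The 3 without TAK1 KO replicate 1 were Pdk4, Ppargc1a and Creb3l3, and the 2 without TAK1 KO replicate 2 were Pdk4 and Fgf21; the 1 without WT replicate 2 was Angptl4 in place of Pdk4. Over the same 4 fits the log2 change ranged from -0.57 to 0.14 for Ppargc1a, from -0.39 to 0.10 for Creb3l3, from -0.33 to 0.14 for Acot1, from -0.19 to 0.37 for Fgf21 and from -1.14 to 0.20 for Acot3; with a lone array in a group, that array is assumed to vary like the others. The settings that kept all 4 arrays (no background correction, an offset of 16, quantile normalization, the filter at 100 units, the mean of all probes, the robust prior and the replicate block) gave 328 gene values for 47 named genes, of which 320 kept their direction and side of the threshold, 8 kept the direction but lost the call and 0 turned. With the replicate number as a block 3067 genes and 1 member passed, and the falls among glucagon, CREB and FOXO1 genes numbered 10 instead of 6. Samples of the same number did not deviate together (correlation 0.045 over all genes, which are not independent), so the numbers were not taken to pair the samples. With the offset of 16 the falls among other PPARalpha targets numbered 7 instead of 14; the cause was not tested. No slide or scan is named in the files, so a slide block was not run. Vnn1, Fabp1 and Cd36 read under 100 units on every array, so their probes say little about a change, and Cidec, which passed, exceeded that level on 1 array only.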
